A study of Mus musculus with 19 samples.

Results

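The heat shock proteins and chaperones of mouse hippocampal microglia are described here through 82 genes, of the 23951 listed in each of 2 tables of expression values. They were chosen by gene name alone: every Hspa, Hspb, Hspd, Hspe, Hsph or Hsp90 gene, every Dnaja, Dnajb or Dnajc gene, the Cct subunits and Tcp1. They comprised 14 Hsp70 and Hsp110 genes, 3 Hsp90 genes, 2 genes of the mitochondrial chaperonin, 10 TRiC chaperonin genes, 45 J protein genes and 8 small heat shock protein genes. Values are FPKM (fragments sequenced from a transcript, divided by its length in kilobases and by the mapped fragments of the library), a scale that allows for transcript length, so levels of different genes within a library can be set side by side.

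RNA was sequenced from microglia sorted from the hippocampus as CD11b+ CD45 cells, in 15 libraries of 5 groups with 3 libraries each. All 5 groups carried 1 copy of Cx3cr1CreER, a tamoxifen-dependent Cre recombinase made by microglia and by other cells that express Cx3cr1, and all were given tamoxifen at 50 mg/kg for 5 days. At 4.5 months of age there were CK-p25 mice, CK-p25 mice that also carried PU.1 fl/fl (CK-p25 PU.1 cKO), and CK mice as controls, all collected 6 weeks after p25 induction. CK-p25 mice can be induced to make p25, an activator of the kinase Cdk5, in forebrain neurons, and are used as a model of neurodegeneration. PU.1, encoded by Spi1, is a transcription factor needed to make and maintain myeloid cells. At 3 months of age there were mice with PU.1 fl/fl and Cx3cr1CreER and controls with Cx3cr1CreER alone, both collected 1 week after tamoxifen. Separate animals are not named for the libraries of a group, so p-values here reflect only how libraries differ, and that spread may be technical.

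The labels of the 3-month samples contradict each other: titles and descriptions tie the columns to genotypes one way and the source names the other way. Titles and descriptions were followed, and the groups are called the libraries labelled PU.1 cKO and the libraries labelled control; the other reading turns every 3-month sign. Spi1 stood at 409, 338 and 337 FPKM in libraries labelled PU.1 cKO, against 261, 105 and 248 FPKM in libraries labelled control, which goes against the titles (log2 difference 0.92 ± 0.35, SE, adjusted p = 0.0853, limma). At 4.5 months Spi1 stood at 165, 152 and 224 FPKM for CK-p25 PU.1 cKO microglia, 251, 208 and 298 FPKM in CK-p25 microglia and 256, 230 and 251 FPKM in CK microglia. Its difference was -0.46 ± 0.17 between CK-p25 PU.1 cKO and CK (adjusted p = 0.0751, limma) and -0.49 ± 0.17 between CK-p25 PU.1 cKO and CK-p25 (adjusted p = 0.745, limma), so loss of the targeted transcript did not pass the test in either comparison.

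Some libraries stood apart. CK-p25 replicate 3 was the only library of its sequencing run and had 42.1% of genes listed at 0, where the 9 libraries of 4.5 months spanned 31.6 to 42.1%. The 8 microglial markers summed to 20725 to 23095 FPKM in CK-p25 libraries, 18853 to 21714 in CK-p25 PU.1 cKO libraries and 26138 to 28371 in CK libraries. At 3 months they summed to 27935 to 31958 FPKM in libraries labelled PU.1 cKO, against 7896 to 14947 in those labelled control. Labelled control replicate 1 also held neutrophil markers at a summed 14674 FPKM and monocyte markers at 951 FPKM, and replicate 2 of that group held border macrophage markers at 1017 FPKM. The part that other cells had in the results below was not tested. In bulk RNA, fewer cells of a type and less RNA per cell cannot be told apart.

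Chaperones bind proteins that are unfolded or newly made and help them to fold. Hsp70 proteins bind and release such clients in a cycle driven by ATP: J proteins start the cycle by stimulating ATP hydrolysis, and nucleotide exchange factors such as the Bag proteins, together with the Hsp110 relatives of Hsp70, end it. Hsp90 takes over many kinases and steroid receptors at a late stage with the help of co-chaperones. The TRiC ring folds actin and tubulin in the cytosol, and Hspd1 (Hsp60) with its lid Hspe1 (Hsp10) forms a folding chamber in mitochondria. Hspa5 (BiP) and Hsp90b1 (Grp94) serve the endoplasmic reticulum, Hspa9 the mitochondria and Hspa8 (Hsc70) the cytosol. Small heat shock proteins hold unfolded clients without using ATP.

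Transcription of these genes is known to be driven through short promoter elements, and those found by a search of RefSeq promoters (GRCm38.p6, 250 bases before to 50 after each start) are printed for genes that the results turn on or that differ in the element they hold. Promoters were listed for 67 of the 82 genes. The heat shock element, the binding sequence of heat shock factors, was searched on both strands as GAA and TTC triplets in alternation, 3 in all and each 2 bases from the next. It was found in Hspd1, Hspe1, Hsph1 and Dnajb6, 4 of the 67, and in 179 of the 27025 genes of the promoter table (0.662%). The endoplasmic reticulum stress element was searched on both strands as CCAAT followed after 9 bases by CCACG. It was found in Hspa5, Hsp90b1 and Dnajc3, 3 of the 67, and in 37 genes of the table (0.137%). A match is a run of letters in the window and was not tested as a binding site. Only exact matches within the window were taken. Genes not named may therefore hold an element that varies from the pattern or lies outside the window.
The stretches around heat shock elements, with the matched bases in capitals, were on the plus strand at chr1:55088053-55088082 for Hspe1 and at chr5:29735844-29735873 for Dnajb6.
Hspe1: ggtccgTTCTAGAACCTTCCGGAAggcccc
Dnajb6: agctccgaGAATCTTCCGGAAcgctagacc
In Hspe1 2 overlapping matches spanned 18 bases and began 89 bases before the start of transcription; in Dnajb6 the match began 46 or 127 bases before it, by which of its 2 listed starts is taken. Hspd1 lies on the other strand from Hspe1 on chromosome 1, with listed starts 95 and 216 bases from that of Hspe1, and the printed element is in the promoter window of the start 216 bases away and not in that of the other.
The stretches around endoplasmic reticulum stress elements, again with the match in capitals, were at chr2:34772020-34772049 on the plus strand for Hspa5, chr14:118937822-118937851 on the plus strand for Dnajc3 and chr10:86705445-86705694 on the minus strand for Hsp90b1.
Hspa5: cttcaCCAATCGGAGGCCTCCACGacgggg
Dnajc3: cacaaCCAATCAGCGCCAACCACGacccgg
Hsp90b1: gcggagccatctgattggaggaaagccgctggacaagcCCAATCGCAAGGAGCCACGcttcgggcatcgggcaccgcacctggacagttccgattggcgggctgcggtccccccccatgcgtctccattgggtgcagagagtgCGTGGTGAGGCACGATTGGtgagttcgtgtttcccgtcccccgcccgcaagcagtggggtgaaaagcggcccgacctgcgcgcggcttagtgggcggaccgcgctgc
The match began 65 bases before the start in Hspa5 and 105 bases before it in Dnajc3. Hsp90b1 held 2 matches, in opposite directions, beginning 212 and 107 bases before its start.

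Of the 82 genes, 66 at each age reached a mean of 1 FPKM over the libraries and were tested; Dnajb13 did so only at 3 months and Hspa12a only at 4.5 months. Those below it included Dnajb8 and Dnajc5g, which were listed at 0 in every library of both tables, and Dnajc6, the J protein that uncoats clathrin vesicles, at a mean of 0.362 FPKM at 4.5 months. The highest levels belonged to Hspa8, the constitutive cytosolic Hsp70, at 549 to 743 FPKM in CK-p25 and 521 to 627 FPKM in CK libraries, and to Hspa5, at 339 to 565 FPKM in CK-p25 and 416 to 436 FPKM in CK libraries. Hsp90b1 and Hsp90ab1 led the Hsp90 genes, and Dnajb11, a partner of Hspa5, and Dnajb6 led the J proteins. Dnajb11 stood at 78.7, 65.2 and 88.1 FPKM in CK-p25 libraries, against 69.2, 62.3 and 69.0 FPKM in CK libraries, and Dnajb6 at 57.2, 63.2 and 77.6 FPKM, against 55.9, 51.1 and 54.4 FPKM. Small heat shock proteins were low: Hspb1 stood at 0.971, 3.05 and 0.575 FPKM in CK-p25 libraries, against 0.923, 0.853 and 0.294 FPKM in CK libraries. Hspb3 led that family at 13.4, 6.93 and 23.7 FPKM in CK-p25 and 33.4, 18.9 and 21.3 FPKM in CK libraries, which overlapped.

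In CK-p25 microglia, set against CK microglia, the mitochondrial chaperones Hspe1, Hspd1 and Hspa9, cytosolic Hsp90 and part of the Hsp70 and J protein families rose, while Dnajb9, Dnajb4, Hspa13 and a few other genes fell. Neither cytosolic Hsp90 gene passed under quantile normalization. Of the 66 genes tested, 16 rose (24.2%) and 7 fell (10.6%) at an adjusted p under 0.05 (limma on log2(FPKM + 1), Benjamini-Hochberg over 10894 genes). The same test called 17.6% of all genes higher and 13.7% lower, so by these calls the chaperones were near the background in both directions. By overlap of libraries they stood further from it. Libraries did not overlap for 25 genes that were higher (37.9%) and 8 that were lower (12.1%), beside 24.0% and 22.5% of all genes. The median log2 difference of the 66 was 0.20. Under quantile normalization the calls were 12 higher and 10 lower, a share of 54.5% of calls higher in place of 69.6%, and under median centring 13 higher and 8 lower. All genes were called higher in 15% and lower in 17.9% under quantile normalization, and in 17.1% and 14.8% under median centring. By family, 5 of 12 Hsp70 and Hsp110 genes rose and 1 fell, 2 of 3 Hsp90 genes rose, both mitochondrial chaperonin genes rose, 1 of 8 TRiC genes rose, 5 of 37 J protein genes rose and 6 fell, and 1 of 4 small heat shock protein genes rose.

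**Figure D1:**
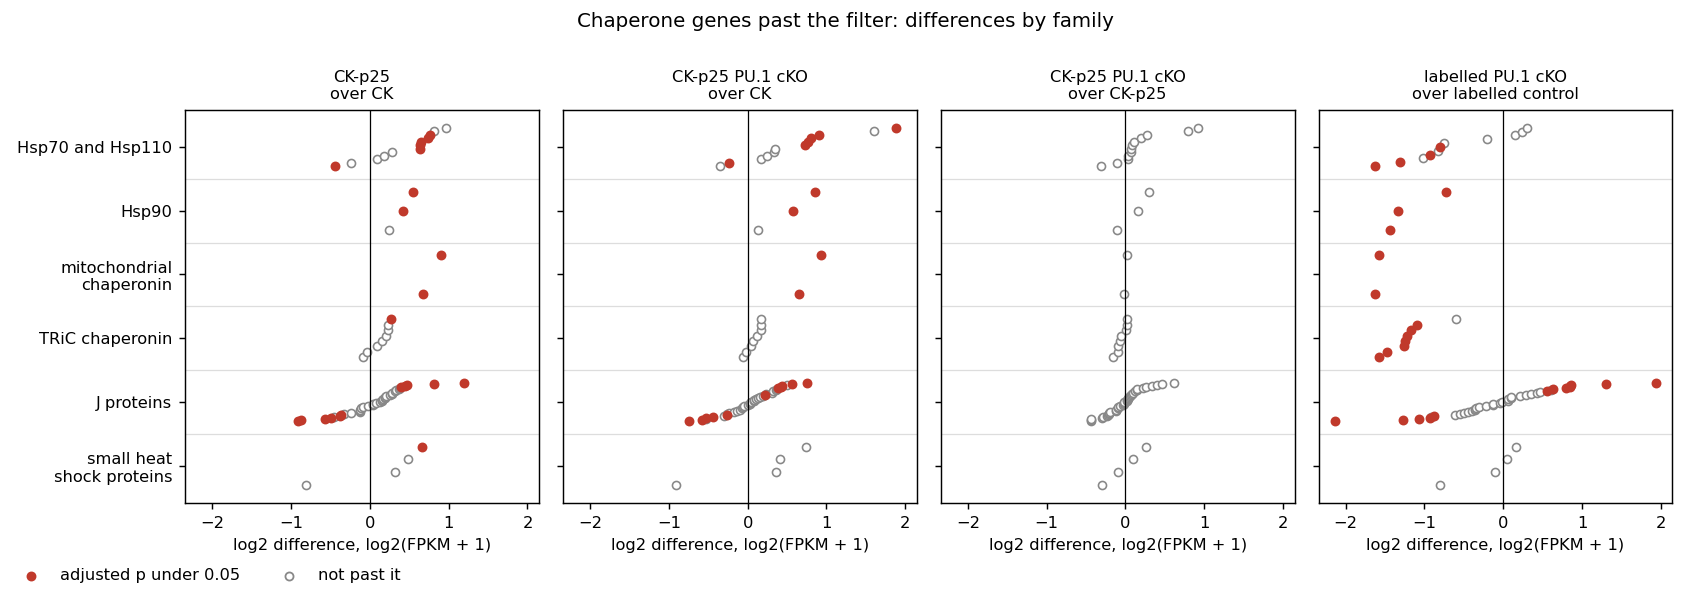
Log2 differences of the tested chaperone genes in each of the 4 comparisons, with genes grouped by family; each point is a gene, and filled points passed an adjusted p of 0.05 (limma). The mitochondrial chaperonin pair lies above 0 in CK-p25 and CK-p25 PU.1 cKO against CK and below 0 in the libraries labelled PU.1 cKO against labelled control.

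Hspe1, Hspd1 and Hspa9 rose in CK-p25 microglia. Hspe1 stood at 73.3, 59.0 and 68.4 FPKM in CK-p25 libraries, against 38.7, 34.1 and 32.8 FPKM in CK libraries (log2 difference 0.91 ± 0.11, SE, adjusted p = 0.000671, limma). Its partner Hspd1 stood at 50.2, 51.4 and 65.9 FPKM in CK-p25, against 35.6, 33.3 and 34.3 FPKM in CK (0.67 ± 0.11, adjusted p = 0.00237, limma). Hspa9, the Hsp70 that pulls proteins into the mitochondrial matrix, stood at 63.8, 65.8 and 67.4 FPKM in CK-p25, against 39.6, 39.1 and 38.5 FPKM in CK, and had the smallest adjusted p of the 66 genes (0.73 ± 0.06, adjusted p = 0.000121, limma). Every CK-p25 library lay above every CK library for all 3 genes. The spans of Hspd1 and Hspe1 overlap each other on opposite strands, which the libraries do not tell apart. Dnajc15 and Dnajc19, J proteins of the mitochondrial import motor, also rose, by 0.45 ± 0.12 and 0.39 ± 0.13 on the log2 scale. Of the 8 mitochondrial genes tested 5 rose (62.5%, beside 17.6% of all genes) and none fell (beside 13.7%), with a median of 0.42. Dnajc30, a J protein of mitochondria, stood at 23.1, 19.2 and 21.2 FPKM in CK-p25, against 25.3, 24.4 and 25.9 FPKM in CK, and did not pass. Dnajc15 missed the threshold in 4 of 16 alternative settings and Dnajc19 in 13; Dnajc19 overlaps Fxr1, and the libraries do not mark strand.

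Among the cytosolic Hsp90 genes, Hsp90ab1, the constitutive form, stood at 235, 214 and 236 FPKM in CK-p25 and 144, 162 and 162 FPKM in CK (0.55 ± 0.09, adjusted p = 0.003, limma). Hsp90aa1, the inducible form, stood at 44.2, 46.3 and 39.7 FPKM in CK-p25 and 29.7, 33.4 and 33.0 FPKM in CK (0.42 ± 0.09, adjusted p = 0.00901, limma). The groups did not overlap for either gene, and under quantile normalization neither passed: 0.21 for Hsp90ab1 (adjusted p = 0.240) and 0.30 for Hsp90aa1 (adjusted p = 0.0697). Hsp90b1, of the endoplasmic reticulum, stood at 362, 338 and 423 FPKM in CK-p25 and 325, 307 and 313 FPKM in CK, without overlap, and did not pass the test (0.24 ± 0.09, adjusted p = 0.0861; -0.23 under quantile normalization).

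The most abundant Hsp70 genes did not pass. Hspa8 stood at 685, 549 and 743 FPKM in CK-p25 and 521, 590 and 627 FPKM in CK (0.18 ± 0.12, adjusted p = 0.315, limma; -0.14 under quantile normalization). Hspa5 stood at 488, 339 and 565 FPKM in CK-p25 and 425, 416 and 436 FPKM in CK (0.09 ± 0.17, adjusted p = 0.713, limma; -0.33 under quantile normalization and -0.07 without CK-p25 replicate 3). CK-p25 replicate 2 was the lowest and replicate 3 the highest of the 9 libraries for Hspa5. Hspa4, an Hsp110-type exchange factor, stood at 29.2, 26.9 and 35.5 FPKM in CK-p25 and 21.6, 19.0 and 16.9 FPKM in CK (0.64 ± 0.13, adjusted p = 0.00598, limma). Hspa4l rose by 0.63, Hspa2 by 0.64 and Hspa12a by 0.77 on the log2 scale from low levels: Hspa2 stood at 3.10, 3.36 and 2.11 FPKM in CK-p25, against 1.27, 1.46 and 1.62 FPKM in CK. The calls of Hspa4l and Hspa12a were lost in 11 and 10 settings and that of Hspa2 in 5. Hspa13, a secretory pathway Hsp70, stood at 18.5, 18.0 and 16.6 FPKM in CK-p25 and 24.7, 23.9 and 24.1 FPKM in CK, and fell by 0.44 on the log2 scale (adjusted p = 0.00329, limma). The Hsp110 gene Hsph1 stood at 7.12, 8.59 and 11.6 FPKM in CK-p25 and 6.45, 8.0 and 7.21 FPKM in CK, which overlapped (0.28 ± 0.16, adjusted p = 0.214, limma).

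J proteins moved both ways. Dnajb14, a J protein of the endoplasmic reticulum membrane, had the largest rise of all tested members: 35.6, 34.5 and 31.5 FPKM in CK-p25, against 12.9, 14.9 and 15.1 FPKM in CK (1.19 ± 0.13, adjusted p = 0.00041, limma). Dnajc2, a partner of Hsp70 at the ribosome, rose by 0.81 ± 0.25 (adjusted p = 0.0402, limma), with 9.04, 10.1 and 19.6 FPKM in CK-p25 and 6.26, 6.62 and 6.70 FPKM in CK; its call was lost in 8 settings. Dnajc10, an endoplasmic reticulum J protein that reduces disulfide bonds, rose by 0.48 ± 0.11 (adjusted p = 0.0136, limma), with 21.4, 25.7 and 22.9 FPKM in CK-p25 and 17.5, 16.0 and 15.9 FPKM in CK.

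In the other direction, Dnajb9 (ERdj4), an endoplasmic reticulum J protein that acts with Hspa5, stood at 26.9, 24.2 and 24.8 FPKM in CK-p25 and 37.1, 33.8 and 37.1 FPKM in CK (-0.49 ± 0.08, adjusted p = 0.00286, limma). Dnajb4, a cytosolic Hsp40, stood at 5.34, 7.26 and 6.23 FPKM in CK-p25 and 15.4, 10.5 and 11.2 FPKM in CK (-0.87 ± 0.17, adjusted p = 0.00676, limma); it overlaps Fubp1. Dnajc28 stood at 3.35, 2.19 and 2.84 FPKM in CK-p25 and 7.67, 4.15 and 7.01 FPKM in CK (-0.92 ± 0.20, adjusted p = 0.0109, limma). Dnajb1, the main heat-inducible Hsp40, stood at 33.1, 26.4 and 28.2 FPKM in CK-p25 and 51.2, 38.6 and 41.5 FPKM in CK (-0.56 ± 0.16, adjusted p = 0.027, limma), and its call was lost in 6 of 16 settings. Dnajb12 and Dnajc18 fell by 0.37 each on the log2 scale; the call of Dnajb12 was lost in 7 settings and that of Dnajc18 in 2.

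Genes of the heat-inducible list thus did not move as a block: of 12 tested, Hspe1, Hspd1, Hsp90ab1 and Hsp90aa1 rose and Dnajb1 and Dnajb4 fell, with a median of 0.45. These were 33.3% and 16.7% of the list, beside 17.6% and 13.7% of all genes. Dnaja1, another Hsp40 of that list, stood at 19.5, 21.5 and 31.8 FPKM in CK-p25 and 26.4, 24.5 and 25.2 FPKM in CK, which overlapped. Of the 8 endoplasmic reticulum genes Dnajc10 rose and Dnajb9 and Hspa13 fell, with a median of 0.13. Hspb6, a small heat shock protein, rose by 0.66 ± 0.14 (adjusted p = 0.00991, limma) with 3.33, 4.36 and 3.65 FPKM in CK-p25, against 1.97, 2.04 and 2.02 FPKM in CK; it overlaps Lin37. Of the 8 microglial markers 2 rose and 4 fell beside these genes: P2ry12 stood at 983, 717 and 999 FPKM in CK-p25 and 4301, 3673 and 3637 FPKM in CK, and monocyte markers summed to 17.4 to 50.5 FPKM in CK-p25 and 3.87 to 17.9 FPKM in CK. Neutrophil markers summed to 0 to 819 FPKM in CK-p25, highest in replicate 2, and to 0.145 to 120 FPKM in CK. Astrocyte markers summed to 104 to 400 FPKM in CK-p25, highest in replicate 2, and to 58.6 to 90.0 FPKM in CK. The part of these in the chaperone differences was not tested.

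**Figure D2:**
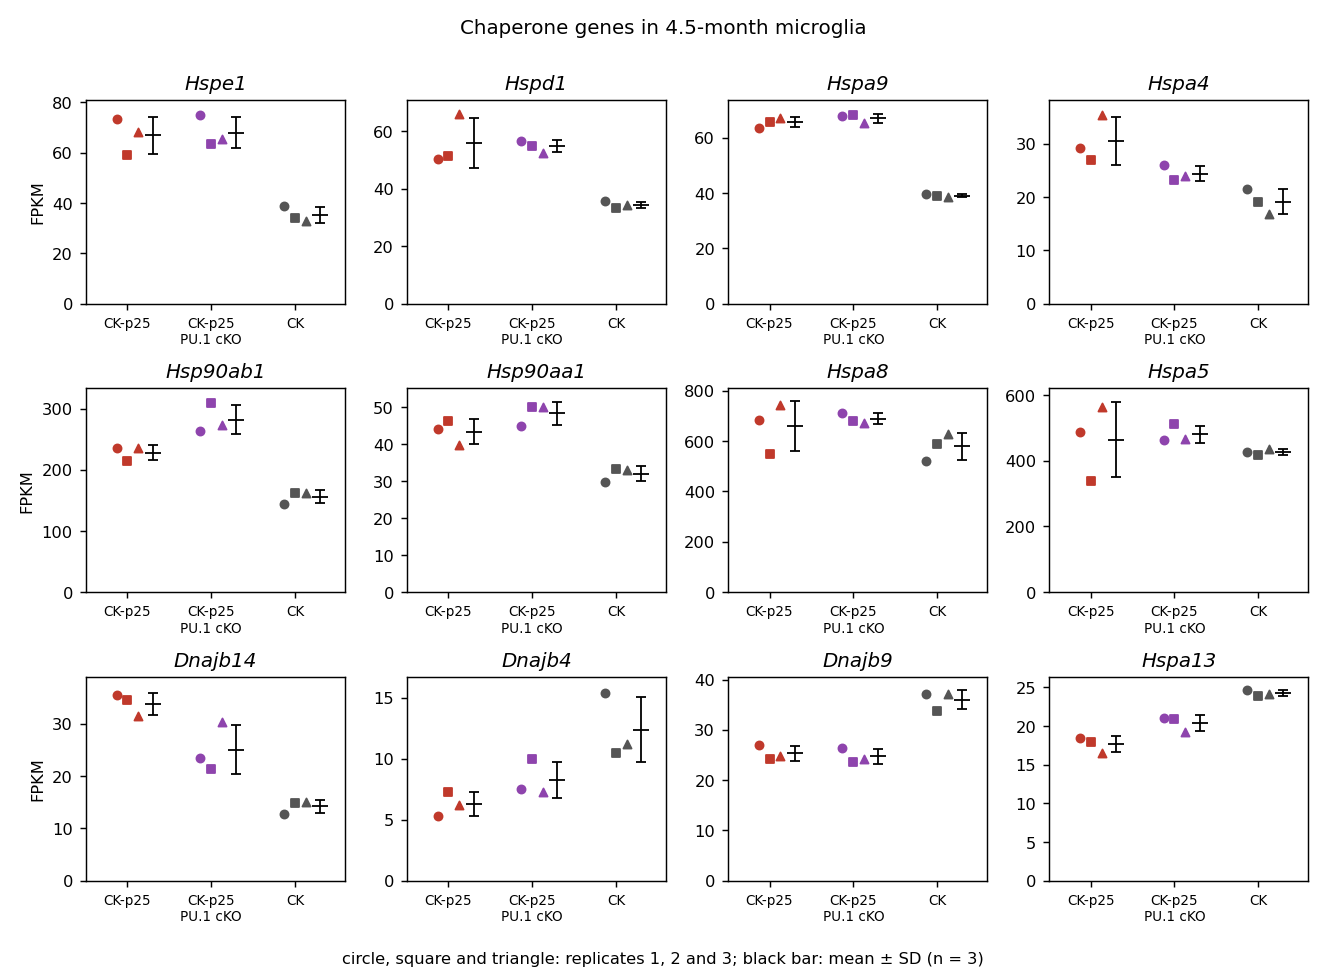
FPKM of 12 chaperone genes in the 9 libraries of 4.5 months, a panel per gene with its own axis; points are libraries and black bars are mean ± SD (n = 3). Hspe1, Hspd1, Hspa9 and Hsp90ab1 are higher in all CK-p25 and all CK-p25 PU.1 cKO libraries than in any CK library, and Dnajb9 and Hspa13 are lower.

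CK-p25 PU.1 cKO microglia, set against the CK libraries already used above, gave a similar number of calls: 15 of 66 genes rose (22.7%) and 6 fell (9.09%), beside 17.8% and 13.3% of all genes tested. Libraries did not overlap for 36 genes that were higher (54.5%) and 11 that were lower (16.7%), beside 29.4% and 29.1% of all genes. The median was 0.16. Under quantile normalization the calls were 12 higher and 8 lower (60% of calls higher, in place of 71.4%) and under median centring 14 higher and 8 lower. Of all genes, 15.6% were called higher and 18.4% lower under quantile normalization, and 17.0% and 15.6% under median centring. Because both comparisons share the CK libraries, each is given by its own values only. With only the compared libraries in the model 24 members rose, and 23 did so without CK-p25 replicate 3. Of all genes, 24.25% and 24.3% were called higher in these fits, in place of 17.8%.

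Hspe1 stood at 75.0, 63.6 and 65.3 FPKM for CK-p25 PU.1 cKO libraries, against the CK values of 38.7, 34.1 and 32.8 FPKM (0.93 ± 0.11, adjusted p = 0.000585, limma). Hspd1 stood at 56.8, 55.0 and 52.6 FPKM (0.66 ± 0.11, adjusted p = 0.00264, limma) and Hspa9 at 68.0, 68.2 and 65.3 FPKM (0.77 ± 0.06, adjusted p = 9.44e-05, limma) in CK-p25 PU.1 cKO. All 3 mitochondrial genes again lay above every CK library. Hsp90ab1 stood at 264, 309 and 274 FPKM (0.85 ± 0.09, adjusted p = 0.000357, limma) and Hsp90aa1 at 44.8, 50.1 and 50.1 FPKM (0.58 ± 0.09, adjusted p = 0.00209, limma) in CK-p25 PU.1 cKO libraries. The calls of these 5 genes held in all 16 alternative settings. Beside them, astrocyte markers summed to 101 to 266 FPKM for CK-p25 PU.1 cKO, against 58.6 to 90.0 FPKM in CK, with 2 of 7 called higher, and monocyte markers to 35.1 to 56.1 FPKM, against 3.87 to 17.9 FPKM in CK, with 1 of 5 called higher. Border macrophage and neutrophil sums overlapped, and none of those markers passed. Of the 8 microglial markers 1 rose and 4 fell, and P2ry12 averaged 808 FPKM for CK-p25 PU.1 cKO and 3870 FPKM in CK. The part of these in the differences between CK-p25 PU.1 cKO and CK was not tested.

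Of the other Hsp70 genes, Hspa2 rose by 0.91 ± 0.16 (adjusted p = 0.00397, limma), with 3.52, 4.20 and 3.14 FPKM for CK-p25 PU.1 cKO, and Hspa4l by 0.73 ± 0.20 (adjusted p = 0.0234, limma). Hspa12a rose by 0.81 ± 0.25 (adjusted p = 0.0393, limma), a call lost in 8 settings, and that of Hspa4l was lost in 5. Hspa4 did not pass (0.34 ± 0.13, adjusted p = 0.076, limma), with 26.0, 23.2 and 23.9 FPKM. Hspa8 (712, 680 and 671 FPKM; 0.25 ± 0.12, adjusted p = 0.166), Hspa5 (464, 511 and 465 FPKM; 0.17 ± 0.17, adjusted p = 0.484) and Hsp90b1 (349, 333 and 356 FPKM; 0.13 ± 0.09, adjusted p = 0.321) did not pass, and under quantile normalization all 3 turned to -0.03, -0.20 and -0.29. Hspa5, Hsp90b1 and Dnajc3 were the genes in which the search found an exact match to the stress element printed above. Dnajc3 stood at 35.5, 36.2 and 33.6 FPKM for CK-p25 PU.1 cKO, 36.4, 32.3 and 26.8 FPKM in CK-p25 and 31.8, 36.3 and 35.4 FPKM in CK libraries, which overlapped.

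Among J proteins Dnajb14 rose to 23.5, 21.4 and 30.4 FPKM for CK-p25 PU.1 cKO (0.76 ± 0.13, adjusted p = 0.00342, limma), and Dnajc10 rose to 26.8, 26.5 and 21.2 FPKM (0.56 ± 0.11, adjusted p = 0.00654, limma). Dnajb9 stood at 26.5, 23.6 and 24.1 FPKM, below all CK libraries (-0.52 ± 0.08, adjusted p = 0.00206, limma). Dnajb12, a membrane J protein of the endoplasmic reticulum, stood at 12.9, 12.8 and 11.4 FPKM for CK-p25 PU.1 cKO and 17.1, 19.7 and 20.6 FPKM in CK (-0.58 ± 0.11, adjusted p = 0.00441, limma). Dnajb5 stood at 5.10, 3.79 and 6.37 FPKM for CK-p25 PU.1 cKO and 7.84, 10.1 and 9.40 FPKM in CK (-0.75 ± 0.20, adjusted p = 0.0221, limma), a call lost in 5 settings. Dnajc15 and Dnajc19 rose by 0.44 and 0.42 and Dnajc4 by 0.38 on the log2 scale, and Dnajc18 fell by 0.43. The call of Dnajc19 was lost in 9 of 16 settings and those of Dnajc15 and Dnajc4 in 5 each. Dnajb1 (-0.17 ± 0.16, adjusted p = 0.458) and Dnajb4 (-0.53 ± 0.17, adjusted p = 0.0509) did not pass in limma. In the lists, 5 of 12 heat-inducible genes rose and none fell, 1 of 8 endoplasmic reticulum genes rose and 2 fell, and 5 of 8 mitochondrial genes rose and Dnajc30 fell, a call lost in 6 settings. No TRiC gene and no small heat shock protein passed.

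The inducible Hsp70 genes Hspa1a and Hspa1b are near-identical neighbours on chromosome 17, so the share of reads given to each is uncertain. Hspa1b stood at 4.52, 3.60 and 19.8 FPKM for CK-p25 PU.1 cKO, 5.90, 3.47 and 1.54 FPKM in CK-p25 and 0.619, 1.32 and 1.82 FPKM in CK libraries. It passed only between CK-p25 PU.1 cKO and CK (1.88 ± 0.59, adjusted p = 0.0417, limma), and the call was lost in 9 of 15 settings, among them leaving out CK-p25 PU.1 cKO replicate 3. Hspa1a stood at 2.79, 2.51 and 14.8 FPKM for CK-p25 PU.1 cKO, 4.15, 1.92 and 1.68 FPKM in CK-p25 and 0.533, 1.34 and 1.09 FPKM in CK libraries (1.60 ± 0.56 between CK-p25 PU.1 cKO and CK, adjusted p = 0.0603, limma). CK-p25 PU.1 cKO replicate 3 was high in both genes. Its summed dissociation stress genes, which respond to cell isolation, stood at 1234 FPKM, beside 1255 and 1524 FPKM in replicates 1 and 2. In CK-p25 those genes summed to 2581 FPKM in replicate 3, beside 1180 and 1226 FPKM, and in CK to 1162, 1048 and 1151 FPKM.

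**Figure D3:**
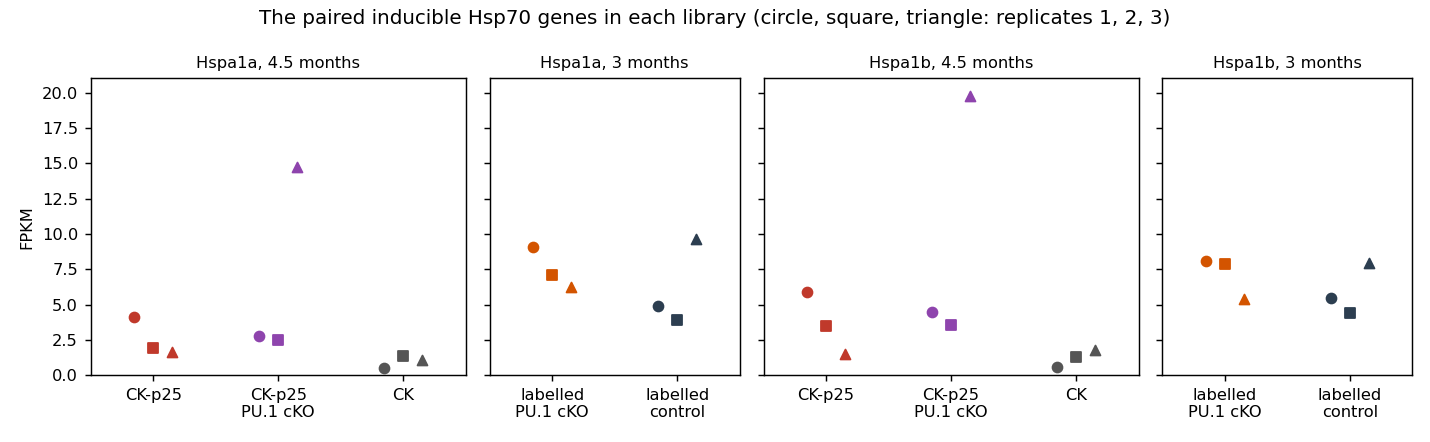
FPKM of Hspa1a and Hspa1b in all 15 libraries, with a panel per gene and age; each point is a library. CK-p25 PU.1 cKO replicate 3 stands at 14.8 FPKM for Hspa1a and 19.8 FPKM for Hspa1b, above the other 8 libraries of 4.5 months.

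Loss of PU.1 in the CK-p25 background was addressed by setting CK-p25 PU.1 cKO against CK-p25. No chaperone gene passed, and no gene of the 10894 did (0.0% called in either direction, limma). An unadjusted p under 0.05 was reached by 6 of the 66 chaperones and by 671 genes in all (6.16%). The chaperones' median was 0.02. Libraries did not overlap for 3 genes that were higher (4.55%) and 4 that were lower (6.06%), beside 4.82% and 4.56% of all genes. The smallest p belonged to Dnajb14, which was lower (-0.43 ± 0.13, 95% interval -0.74 to -0.13), and to Hsp90ab1, which was higher (0.30 ± 0.09, 95% interval 0.09 to 0.52), both at an unadjusted p of 0.0112 (adjusted p = 0.745, limma). Dnajc28 followed, at 5.07, 4.44 and 4.84 FPKM for CK-p25 PU.1 cKO and 3.35, 2.19 and 2.84 FPKM in CK-p25 (0.62 ± 0.20, 95% interval 0.15 to 1.09, unadjusted p = 0.0162, limma). By family the medians were 0.08 for Hsp70 and Hsp110, 0.15 for Hsp90, -0.01 for J proteins, -0.07 for TRiC and 0.00 for the mitochondrial pair.

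At 3 months, Hsp90, TRiC and mitochondrial chaperonin genes were lower in the libraries labelled PU.1 cKO than in those labelled control. The share of chaperones called higher, all of them J proteins, was near the background. In the libraries labelled PU.1 cKO, set against those labelled control, 21 of 66 genes were lower (31.8%) and 8 were higher (12.1%), beside 17.8% and 12.4% of the 10845 genes tested (limma, adjusted p under 0.05). Libraries did not overlap for 30 genes that were lower (45.5%) and 10 that were higher (15.2%), beside 26.9% and 21.9% of all genes. The median of the 66 was -0.36, and that of all genes -0.03. All 3 Hsp90 genes, both mitochondrial chaperonin genes, 7 of 8 TRiC genes and 4 of 11 Hsp70 and Hsp110 genes were lower; J proteins were split, with 8 higher and 5 lower of 38. Lower counts changed with the library left out, as did the share of all genes called lower. Called lower were 7 chaperones without labelled PU.1 cKO replicate 2, 11 without replicate 3 and 12 without replicate 1. They numbered 12 without labelled control replicate 1 and 32 without labelled control replicate 2. Of all genes, 8.2%, 9.5%, 11.39%, 11.04% and 24.69% were called lower in these settings, in place of 17.8%. Chaperones called higher numbered 3, 2, 3, 3 and 9 in the same settings, beside 5.18%, 5.71%, 6.9%, 6.94% and 18.2% of all genes. Labelled control replicate 2, the highest of the 6 libraries in border macrophage markers, was the lowest of its group in 20 of the 21 genes and replicate 3 the highest in 19.

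The microglial markers moved the other way. Of the 8, 7 were called higher in the libraries labelled PU.1 cKO, and P2ry12 by 2.35 on the log2 scale, while neutrophil markers summed to 45.9 to 334 FPKM in libraries labelled PU.1 cKO, against 86.5 to 14674 FPKM in libraries labelled control. Monocyte markers summed to 7.07 to 39.6 FPKM in libraries labelled PU.1 cKO and 48.7 to 951 FPKM in libraries labelled control. Border macrophage markers summed to 179 to 216 FPKM in libraries labelled PU.1 cKO, against 309 to 1017 FPKM in libraries labelled control, and 2 of 5, F13a1 and Lyve1, were called lower. Astrocyte markers summed to 75.8 to 80.3 FPKM in libraries labelled PU.1 cKO, against 19.5 to 46.4 FPKM in libraries labelled control. Slc1a3, at a mean of 63.1 against 11.7 FPKM, was the only 1 of 5 tested that was called higher. Gfap and Aldh1l1 were lower in every library labelled PU.1 cKO, by 0.72 and 0.83 on the log2 scale, and did not pass. Aldoc and Gja1 overlapped. Lymphocyte markers summed to 50.6 to 66.9 FPKM, against 12.1 to 20.5 FPKM in libraries labelled control. Cd79b, at a mean of 56.9 against 15.1 FPKM, was the only lymphocyte marker tested. These 2 sums thus rested mainly on 1 gene each. The monocyte, border macrophage, astrocyte and lymphocyte sums did not overlap between the groups. Their part in the chaperone differences was not tested.

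The largest fall was in Dnajc9, a J protein that is also a histone chaperone, with 14.8, 13.7 and 12.2 FPKM in libraries labelled PU.1 cKO, against 71.4, 44.9 and 77.7 FPKM in libraries labelled control (-2.14 ± 0.23, adjusted p = 0.0011, limma). At 4.5 months Dnajc9 stood at 8.68 to 13.9 FPKM in all 9 libraries. Dnajc10 stood at 16.9, 17.2 and 19.9 FPKM in libraries labelled PU.1 cKO and 42.8, 39.4 and 53.0 FPKM in libraries labelled control (-1.27 ± 0.18, adjusted p = 0.0028, limma). Dnajc21, a J protein of ribosome assembly, differed by -1.07 ± 0.22, Dnaja1 by -0.93 ± 0.18 and Dnajc19 by -0.87 ± 0.28; the call of Dnajc19 was lost in 8 of 12 settings. Dnaja1 stood at 21.1, 20.6 and 23.7 FPKM in libraries labelled PU.1 cKO and 49.8, 34.9 and 43.4 FPKM in libraries labelled control.

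The Hsp90 genes were lower without overlap. Hsp90ab1 stood at 170.0, 160 and 172 FPKM in libraries labelled PU.1 cKO, against 447, 357 and 478 FPKM in libraries labelled control (-1.34 ± 0.18, adjusted p = 0.00254, limma). Hsp90aa1 stood at 29.2, 31.0 and 35.5 FPKM, against 92.8, 68.2 and 106 FPKM in libraries labelled control (-1.44 ± 0.21, adjusted p = 0.00315, limma). Hsp90b1 stood at 425, 375 and 421 FPKM in libraries labelled PU.1 cKO and 752, 512 and 797 FPKM in libraries labelled control (-0.73 ± 0.22, adjusted p = 0.046, limma), and its call was lost in 7 of 12 settings.

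Hspe1 stood at 25.1, 25.1 and 29.3 FPKM in libraries labelled PU.1 cKO, against 87.0, 50.2 and 134 FPKM in libraries labelled control (-1.63 ± 0.33, adjusted p = 0.0114, limma). Hspd1 stood at 48.3, 38.3 and 39.0 FPKM, against 127, 84.1 and 187 FPKM in libraries labelled control (-1.57 ± 0.29, adjusted p = 0.00794, limma), and Hspa9 at 46.1, 52.9 and 47.8 FPKM, against 88.0, 77.1 and 122 FPKM (-0.93 ± 0.21, adjusted p = 0.0154, limma). In these genes the libraries labelled control spread more widely than those labelled PU.1 cKO. Hspe1 passed in 9 of 12 settings, Hspd1 in 11 and Hspa9 in 8. Among the cytosolic Hsp70 relatives, Hspa4 differed by -1.31 ± 0.23 (adjusted p = 0.00592, limma), with 25.3, 23.7 and 23.9 FPKM in libraries labelled PU.1 cKO and 60.7, 46.7 and 83.0 FPKM in libraries labelled control. Hspa4l differed by -1.63 ± 0.40 and Hspa14, an Hsp70 of the ribosome-bound complex, by -0.81 ± 0.25, calls lost in 5 of 11 and 7 of 12 settings. Hspa8 (-0.75 ± 0.28, adjusted p = 0.0818), Hspa5 (-0.83 ± 0.31, adjusted p = 0.0779) and Hsph1 (-1.02 ± 0.33, adjusted p = 0.052) did not pass in limma. Hspa8 stood at 1036, 889 and 834 FPKM in libraries labelled PU.1 cKO and 2074, 1064 and 1671 FPKM in libraries labelled control, and Hspa5 at 937, 666 and 768 FPKM, against 1809, 908 and 1657 FPKM; labelled control replicate 2 was again the lowest of its group in both.

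**Figure D4:**
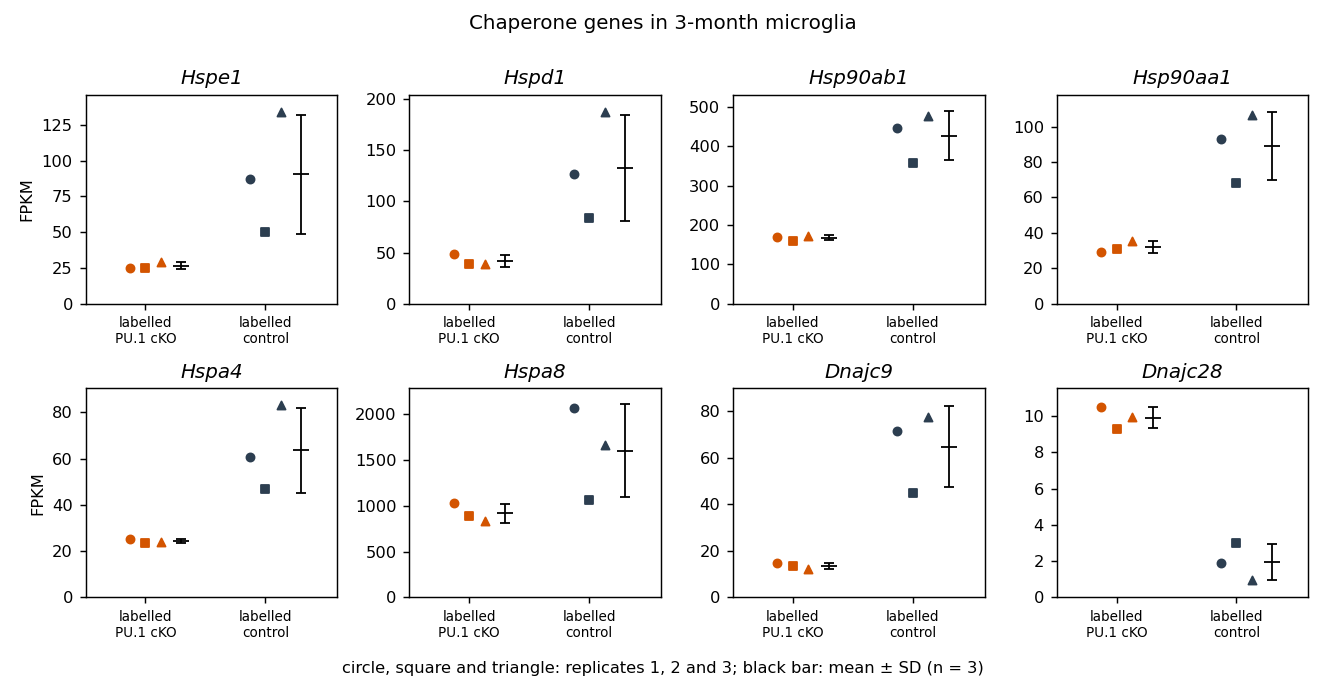
FPKM of 8 chaperone genes in the 6 libraries of 3 months, a panel per gene with its own axis; points are libraries and black bars are mean ± SD (n = 3). Hspe1, Hspd1, Hsp90ab1, Hsp90aa1, Hspa4 and Dnajc9 are lower in all libraries labelled PU.1 cKO, and Dnajc28 is higher.

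The genes that were higher in the libraries labelled PU.1 cKO were all J proteins. Dnajc28 stood at 10.5, 9.31 and 9.95 FPKM in libraries labelled PU.1 cKO, against 1.88, 2.99 and 0.987 FPKM in libraries labelled control (1.94 ± 0.28, adjusted p = 0.00294, limma). Dnajb5 stood at 18.2, 16.6 and 11.3 FPKM, against 4.87, 5.87 and 5.78 FPKM in libraries labelled control (1.31 ± 0.22, adjusted p = 0.00518, limma). These 2 calls held in all 12 settings. Dnajb9 stood at 24.8, 18.3 and 23.9 FPKM in libraries labelled PU.1 cKO and 12.1, 10.0 and 13.7 FPKM in libraries labelled control (0.85 ± 0.20, adjusted p = 0.0169, limma). Dnaja4 was higher by 0.86 ± 0.18, Dnajb2 by 0.85 ± 0.20, and Dnajc5, the synaptic vesicle J protein known as cysteine string protein, by 0.79 ± 0.23. The calls of Dnajc5, Dnajb2, Dnajb9 and Dnaja4 were lost in 6, 5, 4 and 2 settings. Dnajb1 (0.10 ± 0.17, adjusted p = 0.663), Hspa1a (0.31 ± 0.31, adjusted p = 0.472) and Hspa1b (0.24 ± 0.25, adjusted p = 0.496) did not pass in limma: Dnajb1 stood at 54.0, 51.9 and 61.0 FPKM in libraries labelled PU.1 cKO and 56.0, 45.4 and 54.5 FPKM in libraries labelled control.

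The TRiC subunits assemble into paired rings that hold each subunit in equal number, and their transcripts were not equal in level. Cct2 and Tcp1 were the lowest pair in 14 of the 15 libraries; in labelled control replicate 3 Cct2 and Cct4 were. The highest subunit exceeded the lowest by 2.16 to 2.61 times at 4.5 months and 3.00 to 4.91 times at 3 months. At 4.5 months the tested subunits summed to 481 to 623 FPKM in CK-p25, 508 to 545 FPKM in CK-p25 PU.1 cKO and 490 to 495 FPKM in CK libraries, and CK-p25 replicate 3 was the highest. Cct2 alone passed, in CK-p25 against CK, with 39.2, 38.8 and 38.8 FPKM in CK-p25 and 32.0, 31.7 and 33.2 FPKM in CK (0.26 ± 0.06, adjusted p = 0.0149, limma; 0.15, adjusted p = 0.137, under quantile normalization).

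At 3 months the subunits summed to 576 to 667 FPKM in libraries labelled PU.1 cKO, against 972 to 2083 FPKM in libraries labelled control. Tcp1 stood at 47.8, 33.1 and 41.0 FPKM in libraries labelled PU.1 cKO, against 123, 76.5 and 190 FPKM in libraries labelled control (-1.57 ± 0.33, adjusted p = 0.0124, limma). Cct5 stood at 113, 96.0 and 106 FPKM, against 322, 189 and 409 FPKM in libraries labelled control (-1.47 ± 0.29, adjusted p = 0.0098, limma), and Cct2 at 27.1, 29.0 and 35.3 FPKM, against 65.7, 62.3 and 90.1 FPKM (-1.22 ± 0.20, adjusted p = 0.00541, limma). Cct7 and Cct8 differed by -1.25 each, Cct3 by -1.17 and Cct6a by -1.09. Cct4 had lower values in every library labelled PU.1 cKO and did not pass (-0.60 ± 0.24, adjusted p = 0.0892, limma). Cct2 kept its call in all 12 settings; Cct5 lost it in 2, Tcp1 and Cct8 in 4, Cct3 and Cct6a in 5 and Cct7 in 6. Tcp1 overlaps Mrpl18 and Acat3, Cct7 overlaps Pradc1, Cct8 overlaps Usp16 and Cct6a overlaps Psph.

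**Figure D5:**
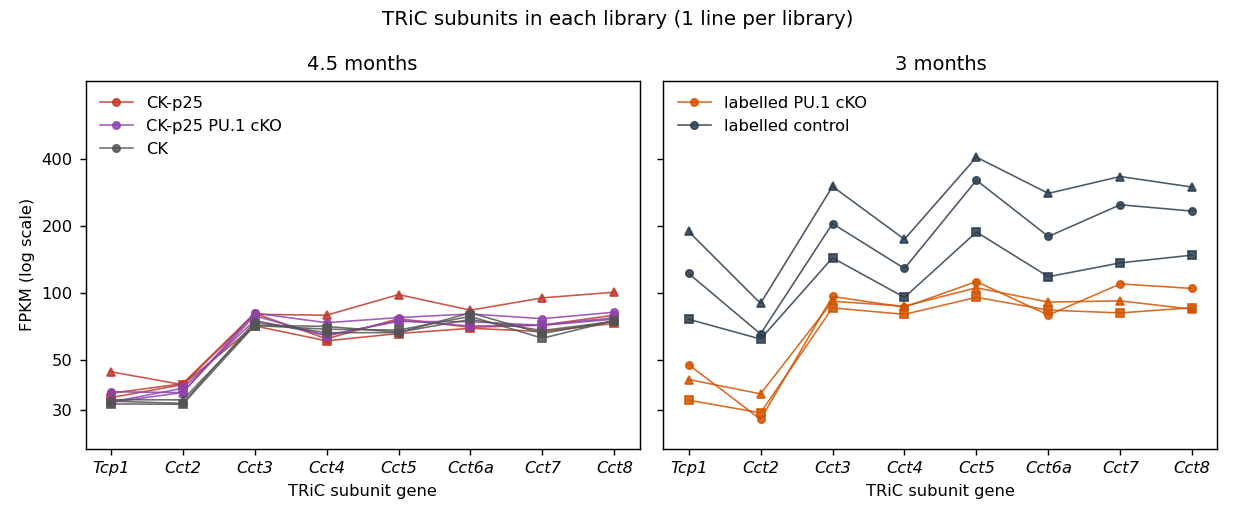
FPKM of the 8 tested TRiC subunits in each of the 15 libraries; subunits run along the axis, FPKM is on a log scale, and each line is a library. Cct2 and Tcp1 lie below the other subunits in 14 libraries, and all subunits are higher in the libraries labelled control than in those labelled PU.1 cKO.

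The 4.5-month and 3-month tables share no library, so their calls can be set side by side as lists. Of the 16 chaperones higher in CK-p25 against CK, 10 were lower in the libraries labelled PU.1 cKO (62.5% of the 16, 47.6% of the 21): Cct2, Dnajc10, Dnajc19, Hsp90aa1, Hsp90ab1, Hspa4, Hspa4l, Hspa9, Hspd1 and Hspe1. Over all genes tested, 753 of the 1922 higher in CK-p25 were lower at 3 months (39.2% of the 1922, 39.1% of the 1925 lower). None of the 16 was called higher there, beside 5.1% of the 1922. Of the 7 lower in CK-p25, Dnajb9, Dnajc18 and Dnajc28 were higher at 3 months (42.9% of the 7, 37.5% of the 8), beside 35.1% and 38.9% of the lists of all genes. For CK-p25 PU.1 cKO against CK, 8 of 15 were lower at 3 months (53.3% and 38.1% of the lists, beside 41.7% and 42.0% over all genes), and Dnajb5, Dnajb9, Dnajc18 and Dnajc30, 4 of 6, were higher (66.7% and 50.0%, beside 41.3% and 44.4%). The difference of these shares from those of all genes was not tested. The relative direction of the 2 tables turns with the reading of the 3-month labels.

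The partners of the chaperones were read from lists of known roles, beside backgrounds of 17.6% higher and 13.7% lower in CK-p25 against CK, 17.8% and 13.3% in CK-p25 PU.1 cKO against CK, and 12.4% and 17.8% at 3 months. Of 12 Hsp70 exchange and holding factors tested, 3 rose (25%) and 1 fell (8.33%) in CK-p25 against CK, 4 rose (33.3%) and none fell in CK-p25 PU.1 cKO against CK, and none was higher and 2 were lower (16.7%) at 3 months. Bag1, an exchange factor of Hsp70, averaged 126 FPKM in CK-p25 and 45.4 FPKM in CK (1.44, adjusted p = 0.000223, limma) and 101 FPKM for CK-p25 PU.1 cKO (1.14, adjusted p = 0.000691, limma). At 3 months it averaged 74.9 FPKM in libraries labelled PU.1 cKO and 268 FPKM in libraries labelled control (-1.77, adjusted p = 0.00437, limma). Sil1, the exchange factor of Hspa5, rose by 0.75 in CK-p25 and 0.66 in CK-p25 PU.1 cKO against CK. Both rose in comparisons in which Hspa8 and Hspa5 did not pass.

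Of 15 Hsp90 co-chaperones tested, 5 rose (33.3%) and 2 fell (13.3%) in CK-p25 against CK, beside 17.6% and 13.7% of all genes. In CK-p25 PU.1 cKO against CK 5 rose (33.3%, beside 17.8%) and none fell, and at 3 months 7 were lower (46.7%, beside 17.8%) and none higher. Fkbp8 averaged 66.6 FPKM in CK-p25 and 43.8 FPKM in CK (0.59, adjusted p = 0.00153, limma), and Cdc37, which brings kinases to Hsp90, rose by 0.47 (adjusted p = 0.00186, limma). Chordc1 and Ppid fell, by 0.55 and 0.50 on the log2 scale. At 3 months Fkbp5, a glucocorticoid target that slows the glucocorticoid receptor, averaged 27.9 FPKM in libraries labelled PU.1 cKO and 91.5 FPKM in libraries labelled control (-1.68, adjusted p = 0.000707, limma). Stip1, which joins Hsp70 to Hsp90, averaged 39.0 FPKM in libraries labelled PU.1 cKO and 108 FPKM in libraries labelled control (-1.43, adjusted p = 0.00455, limma).

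Of 8 prefoldin and phosducin-like partners of TRiC, 2 rose (25%, beside 17.6% of all genes) and 1 fell (12.5%, beside 13.7%) in CK-p25 against CK, 2 rose in CK-p25 PU.1 cKO against CK (25%, beside 17.8%) and 1 was lower at 3 months (12.5%, beside 17.8%), shares near the background. Pfdn5, a subunit of prefoldin, averaged 121 FPKM in CK-p25 and 62.3 FPKM in CK (0.92, adjusted p = 0.00776, limma), and 139 FPKM for CK-p25 PU.1 cKO. Of 24 genes of endoplasmic reticulum folding and the unfolded protein response, 3 rose (12.5%) and 2 fell (8.33%) in CK-p25 against CK, with a median of -0.09. In CK-p25 PU.1 cKO against CK 4 rose (16.7%) and 2 fell (8.33%), and 5 were lower at 3 months (20.8%), which were also near the background. Ddit3 (CHOP), a transcription factor of that response, averaged 35.9 FPKM in CK-p25 and 13.7 FPKM in CK (1.29, adjusted p = 0.0012, limma), and Sdf2l1, a partner of Dnajb11, 264 FPKM in CK-p25 and 157 FPKM in CK (0.75, adjusted p = 0.00231, limma). Xbp1, another transcription factor of the response, averaged 137 FPKM in CK-p25 and 199 FPKM in CK (-0.54, adjusted p = 0.00826, limma). Dnajb9 is one of its known targets, and the part of Xbp1 in the fall of Dnajb9 was not tested. Of the heat shock factors, Hsf1 and the binding partner Hsbp1 were high enough to test, and Hsbp1 rose, with 154 FPKM in CK-p25 and 125 FPKM in CK (0.30, adjusted p = 0.0271, limma); none passed at 3 months.

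Of 11 dissociation stress genes tested at 4.5 months, 2 rose in CK-p25 against CK (18.2%, beside 17.6%) and 1 in CK-p25 PU.1 cKO against CK (9.09%, beside 17.8%), and of 12 tested at 3 months 2 were lower (16.7%, beside 17.8%). Atf3, a stress-induced transcription factor, averaged 70.6 FPKM in CK-p25, 46.7 FPKM in CK-p25 PU.1 cKO and 12.6 FPKM in CK. At 3 months the list summed to 3548, 2565 and 1742 FPKM in libraries labelled PU.1 cKO and 2753, 2468 and 1369 FPKM in libraries labelled control, which overlapped. Its part in the chaperone differences was not tested.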

How the data were processed

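Expression values were analysed from 15 RNA-seq libraries of sorted microglia; 4 chromatin immunoprecipitation samples were not analysed here. The FPKM values were used as deposited by the authors. The submitters' processing notes name TopHat, Bowtie, Cufflinks 2.0.0 and mm9, and the labels' protocols name SMART-Seq v4 and Nextera XT, kits whose libraries do not mark strand. Read depth is not given in the sources used here. The low FPKM values were searched for a common step; it gave relative values of 1 read within 0.763 to 1.01 times the comparison library at 3 months and 0.951 to 1.07 times at 4.5 months for 7 libraries, but no step for CK-p25 replicate 3, so no count test was run.

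Genes that averaged 1 FPKM or more over a table were tested with limma 3.58.1 (R 4.3.3) with a mean-variance trend on log2(FPKM + 1), which understates changes of low genes. Each table was fitted on its own, with all its libraries in a single model of 3 replicates per group. P-values are two-sided, Benjamini-Hochberg adjusted over all genes tested, with a threshold of 0.05; errors beside log2 differences are standard errors. The fit was tested on simulated data. Tables and figures were made with Python 3.11.15, pandas 2.3.3, numpy 2.4.6 and matplotlib 3.10.9.

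The genes and lists were chosen with earlier results of these data known. Named were, always, the main Hsp70, Hsp90, mitochondrial and TRiC genes with Hspb1, Dnaja1 and Dnajb1; per comparison and family, up to 4 of the largest called differences in each direction; without calls, the 3 smallest p; the highest genes of each family; and up to 4 genes per partner list. The labels do not say whether replicate numbers pair libraries, and the main model did not pair them. Deviations of libraries with the same number correlated at -0.016 to 0.131 at 4.5 months and -0.049 to 0.166 at 3 months. Those of libraries with other numbers correlated at -0.216 to 0.154 and -0.264 to 0.120. All 82 genes matched RefSeq GRCm38.p6 by symbol, and the spans of 37 overlap another gene there. Only some of these overlaps are named above. Others include Dnajb14 with Gm40155, Dnajc30 with Bud23, Hspa5 with Rabepk and Hspa12a with Eno4. The alternatives were a pseudocount of 0.1, no filter, a filter at 5 FPKM, quantile normalization, median centring, a replicate block, leaving out each library in turn, and only the compared libraries in the model.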

Additional observations from a re-analysis of the deposited data

Results flagged for a closer look

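Both genes given here were picked because their libraries moved in opposite directions, without overlap, in the comparisons of PU.1 deletion at 4.5 and at 3 months. The share of all genes that did so is not given here. Without overlap, 4.82% of all genes were higher and 4.56% lower in CK-p25 PU.1 cKO against CK-p25, and 21.9% and 26.9% at 3 months. The difference between the comparisons was not tested, and it turns with the reading of the 3-month labels. Hsp90ab1 was higher by 0.302 on the log2 scale in CK-p25 PU.1 cKO than in CK-p25 (264, 309 and 274 FPKM, against 235, 214 and 236 FPKM) and differed by -1.336 between libraries labelled PU.1 cKO and libraries labelled control. Dnajb12 differed by -0.211 between CK-p25 PU.1 cKO and CK-p25 (12.9, 12.8 and 11.4 FPKM, against 13.3, 13.9 and 16.4 FPKM) and by 0.469 between libraries labelled PU.1 cKO (23.5, 22.0 and 21.9 FPKM) and libraries labelled control (18.0, 18.8 and 12 FPKM). Of the 4 differences, that of Hsp90ab1 at 3 months passed the test.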

How the results depend on the processing

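Of 1494 values of 104 named differences under the alternatives, 1229 kept their direction and side of the threshold, 233 lost the threshold, 25 gained it and 7 turned direction; none of the 7 had passed the test. Under quantile normalization, CK-p25 against CK gave -0.23 for Hsp90b1, -0.33 for Hspa5 and -0.14 for Hspa8, and CK-p25 PU.1 cKO against CK gave -0.29 for Hsp90b1, -0.20 for Hspa5 and -0.030 for Hspa8. Hspa5 in CK-p25 against CK ranged from -0.066 (without CK-p25 replicate 3) to 0.30 (without replicate 2) when a library was left out; the cause was not tested. With only the compared libraries, 24 genes were higher in CK-p25 PU.1 cKO than in CK, beside 24.25% of all genes. With no filter, where all 23951 genes share the adjustment, 4 genes were higher and 7 lower at 3 months, beside 3.1% and 3.8% of all genes. Leaving out a library gave 9 to 19 higher and 5 to 9 lower genes in CK-p25 against CK, 9 to 23 and 3 to 7 in CK-p25 PU.1 cKO against CK, 0 and 0 in CK-p25 PU.1 cKO against CK-p25, and 2 to 9 and 7 to 32 in libraries labelled PU.1 cKO against libraries labelled control. At 3 months 5.18 to 18.2% of all genes were called higher and 8.2 to 24.69% lower in these fits. The calls made in every setting numbered 6 of 16 higher and 4 of 7 lower in CK-p25 against CK, 8 of 15 and 3 of 6 in CK-p25 PU.1 cKO against CK, and 2 of 8 and 6 of 21 at 3 months. With the replicate number as a block, 16 genes were higher and 6 lower in CK-p25 against CK, 12 and 5 in CK-p25 PU.1 cKO against CK, 0 and 0 in CK-p25 PU.1 cKO against CK-p25, and 7 and 22 at 3 months; 4 of 9 and 4 of 6 libraries correlated best with their own number. With 3 libraries a group and no read depth given, small differences of low genes such as Hspb1 cannot be resolved.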
